A study of Mus musculus with 6 samples.

Results

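The genes described here mark the cells of the blood vessel wall in the kidney. They are 7 genes of endothelial cells, which line the vessels (Pecam1, Cdh5, Kdr, Emcn, Ehd3, Plvap, and Tek), and 3 genes of mural cells, the pericytes, mesangial cells, and smooth muscle cells that surround the lining (Pdgfrb, Cspg4, and Acta2). They were taken by name, with no measured value used, as all non-control probes that the array files assign to these genes. This gave 17 of the 56605 probes and 10 of the 37325 gene names. Total RNA of the whole left kidney was measured in 3 wild-type (WT) and 3 Selenbp1-KO mice, which lack selenium-binding protein 1, on one-color Agilent arrays with 1 array per mouse. All mice were male, 8 weeks old, and fasted for 20 h. The study's methods name the WT mice as C57BL/6J and give no strain for the Selenbp1-KO mice. The WT mice were bought from a breeder, and whether any were littermates of the Selenbp1-KO mice is not stated. The question was whether the vessel wall genes differed between the genotypes in the fasted kidney.

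Endothelial cells of the kidney form several distinct vessel beds. The glomerular capillaries are perforated by open pores and filter the plasma, the peritubular capillaries have pores closed by a thin diaphragm and take up what the tubules reabsorb, and the arterioles set the blood flow. Endothelial cells survive and branch in response to vascular endothelial growth factor, which podocytes and tubules make and which Kdr receives, and their quiescence is set by angiopoietins, which Tek receives. In return they release platelet-derived growth factor B, which binds Pdgfrb on pericytes and mesangial cells and holds these cells to the vessel.

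The probes are 60 bases long, so a value describes that stretch of the RNA and not every isoform. The starts of the endothelial probes are shown first, because each of these genes was read from this single stretch. Each line gives the first 30 bases from the 5′ end, as the array files hold them.
Pecam1: ccccagaacatggatgtagaatacacagaa
Cdh5: acttattataagactctagttctcacagac
Kdr: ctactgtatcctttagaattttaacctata
Emcn: aacatgccgtagttgagtttagactttcca
Ehd3: gcttataactgcagtgtgtttgtcattagg
Plvap: tttccagcctccctcttaaaggccactagg
Tek: ctctaatgtgactgtatatactgctcggag

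Acta2, the actin of smooth muscle, has 3 probes on its RefSeq transcript (NM_007392), and they are shown because they did not give the same picture. The name of each gives the base of the transcript at which it was placed. The probe at base 335 is given whole. Its match on chromosome 19 of mm9 runs from 34322995 to 34326249, a span of 3255 bases for a 60-base probe, so it crosses an intron. The probes at bases 1278 and 1641 each match 60 contiguous bases, and their first 30 are given.
Acta2 at base 335: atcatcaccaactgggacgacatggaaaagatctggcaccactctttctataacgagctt
Acta2 at base 1278: gttttgtggatcagcgcctccagttccttt
Acta2 at base 1641: acactgacttcacagctagagtgactattt

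Values are log2 signals relative to the 75th percentile of the same array, so 0 is the signal that 3 of 4 spots do not reach. Levels of different probes cannot be set against each other, because probes bind their targets unequally. A gene was read from its brightest probe over the 6 arrays. Genotypes were compared by limma across all probes, and a gene was called, or passed the test, when its p before adjustment was under 0.05, as the study set it. Selenbp1 itself differed by −2.96 (adjusted p = 0.00210 from limma), in the direction of every label. All 6 arrays lie on 1 slide, with WT replicates 2 and 3 in its first row and WT replicate 4 and all Selenbp1-KO replicates in its second. The share of spots well above background ranged from 51.8% to 55.5%, and 0 were saturated.

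The vessel wall was detected in every kidney. All 12 member probes with a RefSeq accession, at least 1 for each of the 10 genes, were well above background on all 6 arrays. None of the 10 members passed the test, and in none were the genotypes free of overlap. Over all genes, 8.00% were called, 6.87% higher and 1.13% lower in Selenbp1-KO mice, 14.1% had groups that did not overlap, and the median difference (Selenbp1-KO minus WT) was 0.13. After adjustment 0.00540% passed. Both counts depend on the arrays: without WT replicate 4, 12522 probes passed after adjustment, against 2 with all arrays, and with the slide row as a block, where 3651 probes were called, only 37.3% of the called probes were higher. Of the genes that stood well above background throughout 1 or both genotypes, 5.79% were called, 19.0% had groups that did not overlap, and the median was 0.02. The means of 7 members were higher and those of 3 lower in Selenbp1-KO mice, and 9 of the 10 differences were at most 0.10 in size. The intervals of those 9 members ran from −0.40 to 0.43, so changes outside 0.758-fold to 1.34-fold lie beyond them and smaller ones could not be resolved with 3 arrays a genotype.

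**Figure D1:**
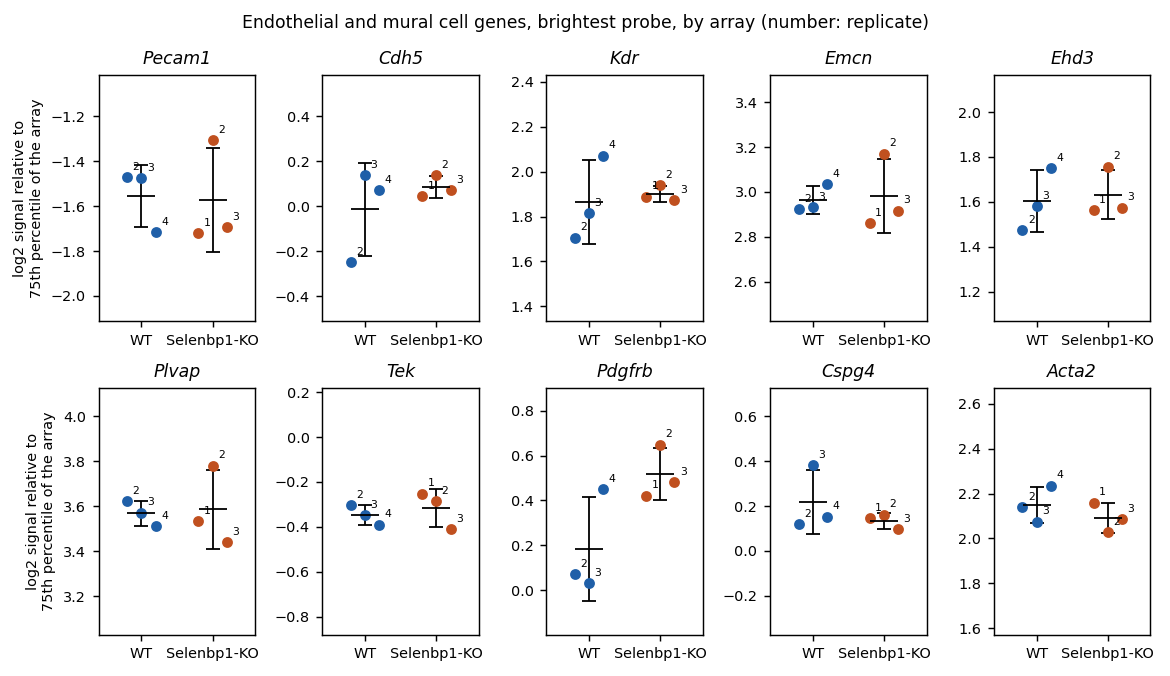
Log2 signal relative to the 75th percentile of the array (y axis, the same span in every panel) for the brightest probe of each of the 10 genes in WT (blue) and Selenbp1-KO (orange) kidneys. Points are arrays with their replicate number, and the bar is the mean ± SD of 3 arrays. The genotypes overlap in every panel.

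Pecam1 and Cdh5 encode adhesion proteins of the contacts between endothelial cells. Pecam1 (NM_001032378, chr11:106540864-106540923 of mm9, minus strand) read −1.47, −1.48, and −1.71 in WT replicates 2 to 4, in that order, and −1.72, −1.31, and −1.69 in Selenbp1-KO replicates 1 to 3, an order kept for every gene that follows. The highest value and the lowest both came from Selenbp1-KO mice. The difference was −0.02 (standard error 0.156, 95% interval −0.40 to 0.36, adjusted p = 0.966 from limma). Cdh5, the cadherin that defines endothelial junctions (NM_009868, chr8:106668159-106668218), read −0.25, 0.14, and 0.07 in WT and 0.05, 0.14, and 0.07 in Selenbp1-KO mice. WT replicate 2 lay below the other 5 arrays. The difference was 0.10 (95% interval −0.23 to 0.43, adjusted p = 0.749 from limma).

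The growth factor receptors did not pass the test either. Kdr, the main signaling receptor for vascular endothelial growth factor A (NM_010612, chr5:76329309-76329368, minus strand), read 1.71, 1.82, and 2.07 in WT and 1.89, 1.94, and 1.87 in Selenbp1-KO mice. The Selenbp1-KO values all lay inside the WT range, and the difference was 0.04 (95% interval −0.27 to 0.35, adjusted p = 0.913 from limma). A pair of further Kdr probes, placed on a separate transcript record each (EU884114 and ENSMUST00000149573), were not well above background on any array and give no fold. Tek, the angiopoietin receptor also called Tie2 (NM_013690, chr4:94540861-94540919), read −0.30, −0.35, and −0.39 in WT and −0.25, −0.28, and −0.41 in Selenbp1-KO mice. It was the steadiest member, with a pooled SD within genotypes of 0.0668 against a median of 0.124 over genes above background. Its difference was 0.03 (95% interval −0.21 to 0.28, adjusted p = 0.907 from limma).

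Emcn, Ehd3, and Plvap report on vessel beds. Emcn encodes endomucin, a sialomucin on the surface of capillary and venous endothelium (NM_016885, chr3:137093811-137093870), and read 2.92, 2.93, and 3.03 in WT and 2.86, 3.17, and 2.92 in Selenbp1-KO mice. Selenbp1-KO replicate 2 was highest and replicate 1 lowest, and the difference was 0.02 (95% interval −0.28 to 0.32, adjusted p = 0.955 from limma). Ehd3, a membrane trafficking protein that in the kidney marks glomerular endothelium (NM_020578, chr17:74181371-74181428), read 1.48, 1.58, and 1.75 in WT and 1.56, 1.76, and 1.57 in Selenbp1-KO mice. The ranges were nearly the same, and the difference was 0.03 (95% interval −0.27 to 0.33, adjusted p = 0.929 from limma). Plvap, the protein of the pore diaphragms of peritubular capillaries (NM_032398, chr8:74021877-74021936, minus strand), read 3.62, 3.57, and 3.51 in WT and 3.53, 3.78, and 3.44 in Selenbp1-KO mice. Its difference was 0.02 (95% interval −0.29 to 0.32, adjusted p = 0.964 from limma). In whole kidney RNA, fewer cells of a type and less RNA per cell cannot be told apart.

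Among the mural genes, Pdgfrb had the largest difference of the 10 members. It encodes the receptor for platelet-derived growth factor B on pericytes and mesangial cells, and fibroblasts carry it as well. Its probe (NM_008809, chr18:61244595-61244654) read 0.07, 0.03, and 0.45 in WT and 0.42, 0.65, and 0.48 in Selenbp1-KO mice. WT replicate 4 lay above Selenbp1-KO replicate 1, so the genotypes overlapped. The difference was 0.33 (standard error 0.151, 95% interval −0.04 to 0.70, or 0.975-fold to 1.63-fold), adjusted p = 0.279 from limma. The WT arrays split as the slide rows do: within the second row, which holds WT replicate 4 alone, the difference was 0.07. Without WT replicate 4, where 12522 of all 56097 probes passed after adjustment, it was 0.47 and passed the test (adjusted p = 0.0490 from limma). The part of slide row in this difference was not tested further, as each value then rests on 1 or 2 WT arrays. Of 10 fibroblast markers, given with the other cell types, 6 were also called higher in Selenbp1-KO kidneys, while Pdgfra among them differed by 0.07. The part of fibroblasts in the Pdgfrb difference was not tested.

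Cspg4 encodes NG2, a proteoglycan on the surface of pericytes (NM_139001, chr9:56746627-56746686). It read 0.12, 0.38, and 0.15 in WT and 0.14, 0.16, and 0.10 in Selenbp1-KO mice. WT replicate 3 stood above the other 5 arrays, and the difference was −0.08 (95% interval −0.36 to 0.19, adjusted p = 0.743 from limma). Of its other probes, AK220559 was well above background on 1 WT array and AK052394 on none, so neither gives a fold.

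Acta2, which contractile smooth muscle of arteries and arterioles expresses strongly, gave small differences by each of its probes. The probe at base 335, its brightest, read 2.14, 2.08, and 2.24 in WT and 2.16, 2.03, and 2.09 in Selenbp1-KO mice, a difference of −0.06 (95% interval −0.31 to 0.19, adjusted p = 0.815 from limma). The probe at base 1278 read 1.62, 1.95, and 2.20 in WT and 1.76, 2.59, and 1.73 in Selenbp1-KO mice, a difference of 0.10 (95% interval −0.58 to 0.78). The probe at base 1641 read −3.41, −3.31, and −2.78 in WT and −3.59, −2.76, and −3.27 in Selenbp1-KO mice, a difference of −0.04 (95% interval −0.70 to 0.62). By the probes at bases 1278 and 1641, WT replicate 4 was highest of the WT and Selenbp1-KO replicate 2 highest of the Selenbp1-KO arrays, while by the probe at base 335 Selenbp1-KO replicate 2 was lowest of all 6. The probe at base 335 lies in the coding sequence, which actin genes share in large part, and how far it reads other actins was not tested. A probe on AK033744 was not well above background on any array.

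Some other smooth muscle genes varied between arrays as the probes at bases 1278 and 1641 did. Of the 25 other mural and mesangial genes above background, 14 were highest in WT replicate 4 among the WT and in Selenbp1-KO replicate 2 among the Selenbp1-KO arrays. Taken singly, the counts for these arrays were 18 and 15. They were 19 and 23 of 34 other endothelial genes, 19 and 17 of 32 growth factor genes, and 5 and 2 of 10 tubule genes. Over all genes they were not counted. These arrays had the lowest 75th percentile of their genotype, 519 and 477, and the part of the scaling was not tested. Other mural genes ran differently: Des, an intermediate filament protein, was lowest of all in WT replicate 4, at −2.73. Those shown were chosen after their values were seen. Cnn1, the actin-binding protein calponin, read −0.84, −0.91, and −0.47 in WT and −1.42, −0.09, and −1.40 in Selenbp1-KO mice. Tagln, another actin-binding protein, read 2.61, 2.69, and 3.04 in WT and 2.83, 3.40, and 2.87 in Selenbp1-KO mice. Myh11, the smooth muscle myosin heavy chain, read −2.45, −2.40, and −2.13 in WT and −2.76, −2.02, and −2.95 in Selenbp1-KO mice. In Cnn1, Tagln, and Myh11 Selenbp1-KO replicate 2 was the highest array and WT replicate 4 the second highest, and the spread among mice of 1 genotype exceeded the difference between genotypes.

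**Figure D2:**
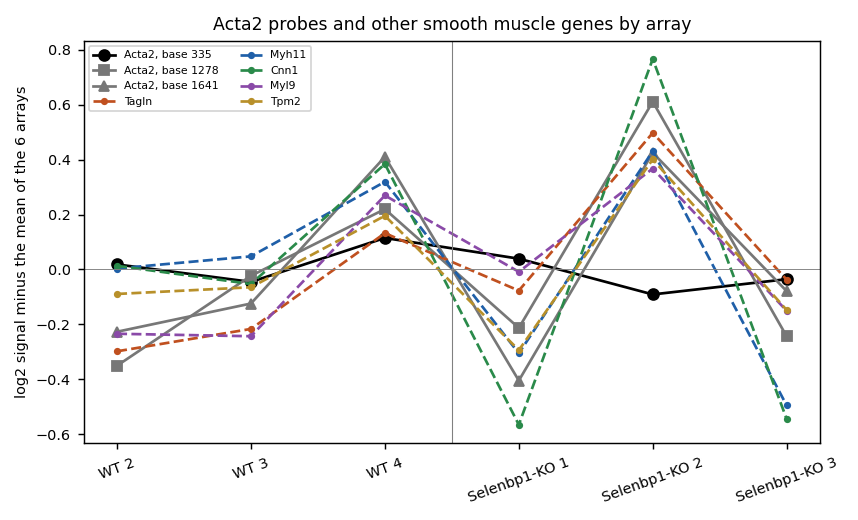
Log2 signal of the 3 Acta2 RefSeq probes (solid lines, named by their base in the transcript) and of 5 other smooth muscle genes (dashed lines) on each array, minus the mean of the 6 arrays (y axis). All but the Acta2 probe at base 335 lie above their mean in both WT replicate 4 and Selenbp1-KO replicate 2, whereas that probe is lowest in Selenbp1-KO replicate 2.

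**Figure D3:**
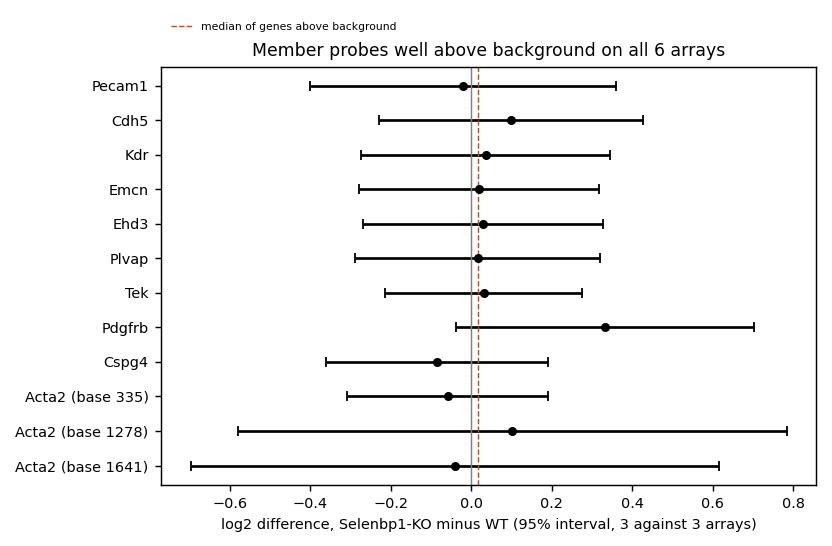
Log2 difference, Selenbp1-KO minus WT, with its 95% interval from limma (x axis) for the 12 member probes well above background on all 6 arrays. The dashed line is the median of genes above background, 0.02, and every interval includes 0.

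The ligands and partner receptors of the members were read next. For Kdr, the ligand Vegfa read 2.41, 2.55, and 2.64 in WT and 2.29, 2.46, and 2.39 in Selenbp1-KO mice, a difference of −0.15 (95% interval −0.43 to 0.12), and the groups overlapped. The related ligands Vegfb and Vegfc differed by 0.11 and 0.14, and the decoy receptor Flt1 by −0.04. Pgf was well above background on 2 WT arrays and 1 Selenbp1-KO array, so no fold is given. For Tek, the activating ligand Angpt1 differed by 0.09, the partner receptor Tie1 by 0.12, and the phosphatase Ptprb, which removes phosphate from Tek, by −0.09. Angpt2, the ligand that can oppose Angpt1, read −1.09, −1.30, and −1.07 in WT and −1.03, −0.92, and −0.91 in Selenbp1-KO mice. Its groups did not overlap, but the difference of 0.20 did not pass the test (95% interval −0.08 to 0.47, adjusted p = 0.365 from limma). For Pdgfrb, the endothelial ligand Pdgfb differed by −0.18 (95% interval −0.54 to 0.19), the ligand Pdgfd by −0.02, Pdgfa by −0.07, and the sister receptor Pdgfra by 0.07.

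**Figure D4:**
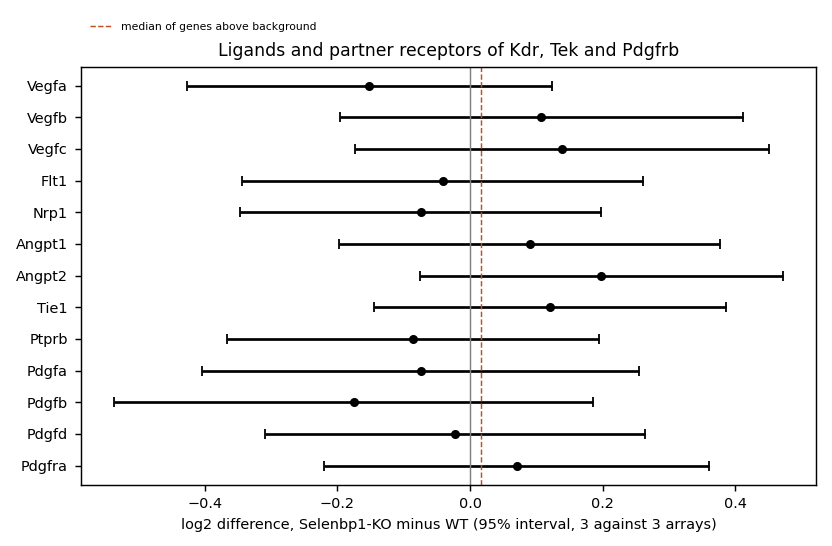
Log2 difference, Selenbp1-KO minus WT, with its 95% interval from limma (x axis) for 13 ligands and partner receptors of Kdr, Tek, and Pdgfrb. Every interval includes 0, and the dashed line is the median of genes above background, 0.02.

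Of all 37 vascular growth factor and receptor genes, 1 was higher and 0 were lower, with a median difference of 0.09, against the 6.87% called higher and the median of 0.13 over all genes. The median of genes above background, as 32 of the 37 were, was 0.02. The list median was 0.0157 with quantile normalization and −0.0197 with the slide row as a block. The 1 gene was Aplnr, the apelin receptor of growing endothelium, which read −3.62, −3.69, and −3.86 in WT and −3.22, −3.30, and −3.52 in Selenbp1-KO mice. All Selenbp1-KO arrays lay above all WT arrays, by 0.38 on average (adjusted p = 0.279 from limma). The call was lost with the trend and robust options (0.38), with the replicate block (0.25), and without WT replicate 3 (0.39), WT replicate 4 (0.31), Selenbp1-KO replicate 1 (0.31), or Selenbp1-KO replicate 2 (0.35).

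Calls among other endothelial genes lay near the background share. Of the 34 such genes on the array, all of them well above background, 18 were higher and 16 lower in mean, with a median difference of 0.01. Groups did not overlap in 3 of the 34, a smaller share than the 19.0% of all genes above background. The test called 1 in each direction, against 5.79%. Gpihbp1, which carries lipoprotein lipase to the capillary surface, read 1.02, 1.20, and 1.18 in WT and 1.56, 1.68, and 1.38 in Selenbp1-KO mice, higher by 0.40 (adjusted p = 0.279 from limma). Adgrf5, an adhesion G protein-coupled receptor, read 0.81, 0.85, and 0.75 in WT and 0.48, 0.64, and 0.52 in Selenbp1-KO mice. It fell by 0.26 (adjusted p = 0.279 from limma). With the slide row as a block neither was called, at differences of 0.36 for Gpihbp1 and −0.20 for Adgrf5. The Gpihbp1 call was also lost with the replicate block (0.42) and without WT replicate 2 (0.35), Selenbp1-KO replicate 1 (0.40), or Selenbp1-KO replicate 2 (0.33). The Adgrf5 call was also lost with median scaling (−0.28), with the replicate block (−0.25), and without WT replicate 2 (−0.25), WT replicate 3 (−0.24), Selenbp1-KO replicate 1 (−0.23), or Selenbp1-KO replicate 3 (−0.25).

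Of 27 other mural and mesangial genes, 20 were higher in mean and 7 lower, with a median of 0.12 and 4 whose groups did not overlap. Over all genes the median was 0.13 and 14.1% had groups that did not overlap. Over genes above background, as 25 of the 27 were, the values were 0.02 and 19.0%. With quantile normalization the list median was 0.105, where the median of all probes was 0.000348. Within the second slide row the list median was 0.03. The test called 2, both higher, against 6.87% called higher over all genes and 5.79% called in either direction over genes above background. Kcnj8, a potassium channel subunit of pericytes, read 0.68, 0.37, and 0.57 in WT and 0.86, 0.75, and 0.95 in Selenbp1-KO mice, a difference of 0.31 (adjusted p = 0.279 from limma). Ndufa4l2, a mitochondrial protein used as a pericyte marker, read −1.09, −1.30, and −0.87 in WT and −0.63, −0.57, and −0.74 in Selenbp1-KO mice, a difference of 0.44 (adjusted p = 0.279 from limma). With the slide row as a block neither was called, at differences of 0.28 for Kcnj8 and 0.22 for Ndufa4l2. The Kcnj8 call was also lost with median scaling (0.30), with the replicate block (0.32), and without WT replicate 3 (0.23), WT replicate 4 (0.33), Selenbp1-KO replicate 1 (0.31), or Selenbp1-KO replicate 3 (0.26). The Ndufa4l2 call was lost without WT replicate 2 (0.43), WT replicate 3 (0.33), Selenbp1-KO replicate 1 (0.43), or Selenbp1-KO replicate 2 (0.40).

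The mean level of a list on each array sets the vessel wall beside the other cells of the kidney. The 7 endothelial members averaged 1.101 to 1.191 on the WT and 1.11 to 1.31 on the Selenbp1-KO arrays, and the 3 mural members 0.78 to 0.95 and 0.89 to 0.95, so both overlapped. Kidney tubule genes overlapped as well, at 5.79 to 5.87 and 5.79 to 5.82, with 0 of 10 called. Of 8 podocyte genes, whose cells face the glomerular endothelium, 1 was higher, Synpo, by 0.29. That call was lost with median scaling (0.27), the slide block (0.23), the replicate block (0.30), and without WT replicate 2 (0.22) or any of the Selenbp1-KO replicates 1 (0.27), 2 (0.28), and 3 (0.31). Of 7 lymphatic endothelial genes, 0 were called, and 5 were well above background. Over all genes 8.00% were called, and over genes above background 5.79%.

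The averages of the fibroblast, macrophage, and red blood cell lists did not overlap between the genotypes. These lists were chosen with earlier results of these data known. Over all genes 6.87% were called higher, and over genes above background 5.79% were called in either direction. With the slide row as a block, the list medians were 0.67 for fibroblasts, 0.42 for macrophages, and 0.67 for red blood cells. Of 10 fibroblast genes, 6 were called, all higher in Selenbp1-KO mice, with a median of 0.66, and the list averaged −1.14 to −0.89 on the WT and −0.55 to −0.09 on the Selenbp1-KO arrays. They were the collagen genes Col3a1, higher by 0.73, and Col1a1, by 0.44, and the matrix genes Lum, by 0.85, Mfap5, by 1.40, Dpt, by 1.08, and Dcn, by 0.83. Pdgfra, also on this list, was not called and had its smallest difference, 0.07. Of 10 macrophage genes, 8 were called, all higher, with a median of 0.59 and averages of −1.16 to −1.10 against −0.62 to −0.48. The 6 with the smallest p were Lyz2, a lysozyme (0.74), the complement genes C1qc (0.60), C1qa (0.58), and C1qb (0.51), the mannose receptor Mrc1 (0.70), and Cd68 (0.36). Of 6 red blood cell genes, 4 were called, all higher, the globin genes Hbb-b1 (1.26), Hbb-bt (1.02), and Hba-a1 (0.56) and the heme synthesis enzyme Alas2 (0.86), with averages of 1.70 to 1.80 against 2.11 to 2.71. The 7 fat genes had a median of 0.78 but overlapped, at 0.20 to 1.46 in WT and 0.72 to 2.69 in Selenbp1-KO mice, and 0 were called. With all arrays, 0 of the 155 probes of all lists read here, the 10 members left out, passed after adjustment over all probes. The lowest adjusted p among them was 0.279 from limma. Without WT replicate 4, 15 of them passed, against 12522 of all 56097 probes tested. With the trend and robust options 7 of them passed, against 183 of the 56097. The member Pdgfrb also passed without WT replicate 4.

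**Figure D5:**
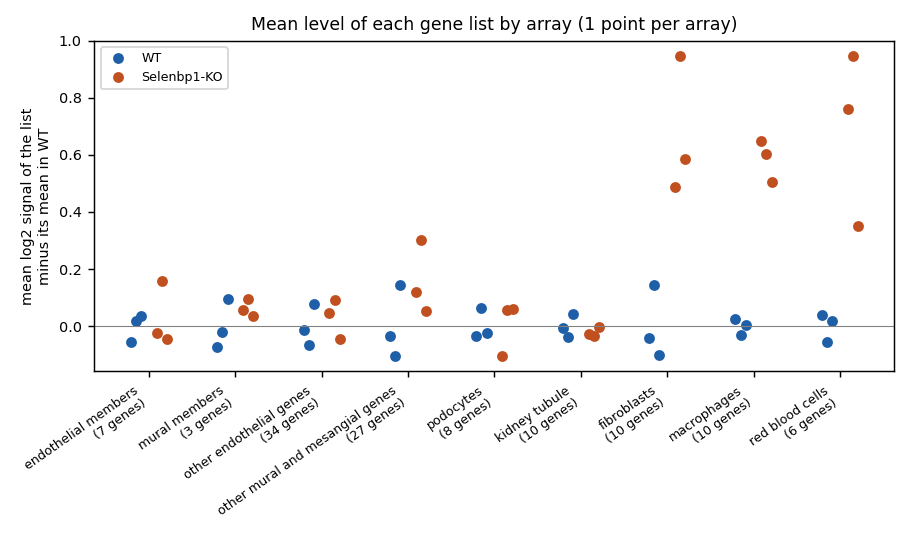
Mean log2 signal of each gene list on each array minus its mean over the 3 WT arrays (y axis), with 1 point per array, in WT (blue) and Selenbp1-KO (orange) kidneys. The endothelial and mural members overlap between genotypes, whereas the fibroblast, macrophage, and red blood cell lists do not.

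The members also varied between arrays. Selenbp1-KO replicate 2 was the highest of the 6 arrays for 6 of the 10 members, and among 34 other endothelial genes it was the highest of the 3 Selenbp1-KO arrays for 23. The same array also had the highest averages of the fibroblast, fat, red blood cell, lymphatic, and muscle lists. It was highest as well for the lists of other endothelial, other mural, and growth factor genes. The macrophage, podocyte, renin, and tubule lists were highest on other arrays. Its 75th percentile, by which its values were scaled, was the lowest of the 6, at 477. How many of all genes were highest on it was not counted. The part of the scaling and of those cells in its vessel wall values was not tested. With 3 mice against 3, an exact permutation test of a single value cannot go below p = 0.1.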

How the data were processed

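RNA was labeled with 1 dye and hybridized to 1 array per mouse. The authors scanned the arrays with Agilent Feature Extraction and deposited its output: linear, background-subtracted intensities, not scaled between arrays, and a detection p-value per spot, which the deposited files also hold. The version is 10.7.1.1 in the file headers and 9.5.1.1 in the submitters' processing notes. The authors also deposited a table of quantile normalized intensities, used here as an alternative. The labels and the methods name different RNA kits.

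The log2 of the signal was taken minus that of the array's 75th percentile over 59305 non-control spots. Outlier spots were dropped and spots of a probe averaged. The 56097 probes whose detection p was below 0.05 on any of the 6 arrays were tested with limma 3.58.1 in R 4.3.3, two-sided, with Benjamini–Hochberg adjustment over all probes. The script was tested on simulated data. Nothing states pooling or separate litters, so p-values measure the spread between these mice. The number of arrays limits the precision. The files give coordinates on mm9, and no annotation of that build was used here, so exons and UTRs are not given.

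The members and gene lists were chosen with earlier results of these data known. Genes named are all members, their direct ligands and co-receptors, and, of each list, up to 6 called genes with the smallest p. Cnn1, Tagln, Myh11, Des, Arhgef15, Mcam, and Nrp2 fall outside this rule and were chosen after their values were seen. Alternatives were other background corrections, scalings, and filters, limma's trend and robust options, slide row and replicate number as blocks, each array left out, and averaging over the probes of each gene. Lists of vessel wall, lymphatic, podocyte, fibroblast, macrophage, red blood cell, fat, renin, tubule, and muscle genes were read.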

Additional observations from a re-analysis of the deposited data

How the results depend on the processing

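The members were recomputed under 17 alternatives. No member other than Pdgfrb passed the test in any of them. Pdgfrb was higher in Selenbp1-KO mice in all 17, from 0.07 to 0.51, and was the 1 member called with normexp background correction, with scaling by the median, with a filter on signal over background, and with limma's trend and robust options. Leaving out 1 array gave 0 to 1 members called. Cspg4 stayed negative throughout. With normexp, Pecam1 differed by 0.00651 and Emcn by −0.0240. Plvap differed by −0.0255 with quantile normalization, by −8.13e-05 with median scaling, and by −0.0238 in the authors' table. With the slide row as a block, Pecam1 differed by 0.14, Kdr by −0.17, Emcn by −0.0510, and Ehd3 by −0.12. With the mean of all probes, which takes in probes not above background, Acta2 differed by 0.14, Kdr by 0.33, and Cspg4 by −0.29. Without 1 array, the ranges were −0.154 to 0.0541 for Pecam1, −0.0191 to 0.175 for Cdh5, −0.0425 to 0.141 for Kdr, −0.0745 to 0.0804 for Emcn, −0.0343 to 0.103 for Ehd3, −0.0812 to 0.0884 for Plvap, and −0.000988 to 0.0782 for Tek. The causes were not tested.

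Probes called numbered 4479, of which 81.1% were higher in Selenbp1-KO mice, against 53.8% of 4697 with quantile normalization, where the median of all probes was 0.000348 in place of 0.11, and 37.3% of 3651 with the slide block. They numbered 14616 with median scaling, 2841 with that filter, 7536 with the trend and robust options, and 2024 to 17585 without 1 array, highest without WT replicate 4 (17585) and lowest without WT replicate 2 (2024). Genes called numbered 2964, 9756 with median scaling, 5213 with the trend and robust options, and 1294 to 11812 without 1 array. The 3 lists of other endothelial, other mural, and growth factor genes hold 34, 27, and 37 genes, some of them shared. Of these, 5 were called, against 2964 of all 37028 genes. With normexp 9 were called, against 4422 of all genes, and with the filter 9, against 2000 of 19263. The trend and robust options called 10, against 5213 of all genes, and the slide block 3, against 2253. On leaving out 1 array, the count ran from 1 (without Selenbp1-KO replicate 1) to 10 (without WT replicate 4). Over all genes these settings called 2095 and 11812. Probes past adjustment numbered 2, 0 with either block, 183 with the trend and robust options, and 12522 without WT replicate 4. Fibroblast calls ranged from 5 to 8, macrophage calls from 4 to 10, and red blood cell calls from 3 to 4. Limits are the slide row, which holds WT replicates 2 and 3 apart from all other arrays, and probes near background, which give no fold.

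Replicate numbers 2 and 3 occur in both genotypes, but they name different mice. The deviations of same-numbered arrays correlated at 0.17 and 0.19, with only 2 pairs. Those of different-numbered arrays correlated at −0.326 to 0.186, so the numbers were not taken to pair the mice. With the replicate number as a block, 18430 probes, 12286 genes, 9 list genes, and 1 member were called, Pdgfrb differed by 0.51, and Tek differed by −0.0229.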

Other observations

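Renin cells, the specialized mural cells of the arteriole that feeds the glomerulus, were read by 2 genes, and 0 were called. The list averaged −2.10 to −1.75 on the WT and −1.77 to −1.68 on the Selenbp1-KO arrays, with a median difference of 0.21, and within the second slide row the median was 0.01. Of 7 muscle and heart genes, 2 were called, Myh7 and Tnnt2, both higher, against 6.87% called higher over all genes. Myh7 was not well above background on any array and Tnnt2 only on 1 Selenbp1-KO array, so no fold is given.

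The brightest probes of 3 vessel genes, chosen after their values were seen, split the arrays in a way that crosses genotype. Arhgef15 read 4.77, 5.32, and 4.54 in WT replicates 2 to 4 and 5.38, 4.62, and 5.31 in Selenbp1-KO replicates 1 to 3. Mcam read 6.74, 7.01, and 6.73 in WT and 7.08, 6.69, and 7.06 in Selenbp1-KO mice. Nrp2 read 7.17, 7.54, and 7.07 in WT and 7.55, 7.08, and 7.59 in Selenbp1-KO mice. In each, WT replicate 3 and Selenbp1-KO replicates 1 and 3 were the higher arrays. These lay in slide columns 4, 2, and 4. WT replicates 2 and 4 and Selenbp1-KO replicate 2 lay in columns 3, 1, and 3. The same higher arrays went together over 28509 probes above background, so the split is not particular to these genes. There the deviations of WT replicate 3 from its genotype mean correlated with those of Selenbp1-KO replicates 1, 2, and 3 at 0.186, −0.326, and 0.187. Within each slide row these 3 arrays had the higher 75th percentiles, at 751, 566, and 584. The cause of the split, slide column included, was not tested.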
